A study of Gallus gallus with 6 samples.

Results

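The genes described here are 36 listed genes of protein folding in the endoplasmic reticulum (ER) and of the unfolded protein response, each read from 1 probe set of a chicken Affymetrix array, the one with the highest mean over the 6 arrays. Of the 36 genes, 31 had a probe set with that single gene symbol, and all 31 passed the filter on dim probe sets, among 10008 genes tested. They comprised 15 of 16 listed chaperones and folding enzymes, 3 of 4 sensors and transcription factors, 6 of 8 degradation genes and 7 of 8 translocation genes. MANF, ATF6, SYVN1, OS9 and SRPRB were not analysed here.

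Proteins destined for secretion or for membranes enter the ER through the Sec61 channel, where chaperones and protein disulfide isomerases fold them and where misfolded chains are sent back to the cytosol for degradation. When unfolded proteins accumulate, the sensors IRE1 (ERN1), PERK (EIF2AK3) and ATF6 start the unfolded protein response, in which XBP1 and ATF6 raise the transcription of chaperone and degradation genes while PERK slows translation and favours that of ATF4. In the B cell lineage XBP1 is known for the expansion of the ER that accompanies antibody secretion.

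Total RNA was taken from DT40, an established chicken B cell line, in exponential growth, and each of 3 groups had 2 arrays. The K11-5 cells are labelled as completely null for linker histone H1, the K11 cells as a knock out of the endogenous H1, and the remaining cells as wild type. Cultures of all 3 groups contained 100 nM Z-VAD-FMK, which inhibits caspases broadly, and were kept at 39.5 °C, so the wild type arrays also come from inhibitor-treated cells. The labels do not describe the difference between K11-5 and K11 any further, nor how many clones either name covers. Whether the 2 arrays of a group stand for separate cultures is not stated, so the p-values reflect only how far such arrays differed, which may be technical variation. These are bulk samples, in which fewer cells of a type and less RNA per cell cannot be told apart.

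Several measures of the whole arrays moved with the groups. The trimmed mean of the deposited signals was 59.5 and 68.4 in K11-5, 56.0 and 48.0 in K11, and 77.7 and 66.7 in wild type, and the arrays were therefore quantile-normalized. Actin control probe sets gave 3' to 5' signal ratios of 6.29 and 5.28 in K11-5, 9.23 and 9.31 in K11, and 8.10 and 7.15 in wild type, so the groups did not overlap and the 2 lines lay on opposite sides of wild type. GAPDH gave 0.914 and 0.798 in K11-5, 0.832 and 0.819 in K11, and 0.892 and 0.917 in wild type, with both K11 arrays below wild type and K11-5 overlapping it. HIST1H111L, a linker histone gene, had normalized signals of 4793 and 4442 in K11-5, 5810.2 and 1597 in K11, and 1645 and 2186 in wild type, which does not follow the labels. Where its probes lie relative to the disrupted sequence is not known here, so this probe set does not check the labels, and the groups are called by them. Of 12 measured B cell markers, summed signals were 6336 and 3351 in K11-5, 13213 and 14066 in K11, and 4961 and 6031 in wild type. CD74 and IGLL1 made up most of the K11 sums. CD74 was at 5335 and 5009 in K11 and 1023 and 1244 in wild type. IGLL1 was at 4720 and 5409 in K11 and 1354 and 1216 in wild type. PAX5, IRF8 and BLK also lay above wild type in both K11 arrays, and the other genes of the list overlapped. PAX5 lay below background in both wild type arrays, at 7.72 and 3.76. The second K11-5 array was lower than the first in every B cell marker except PAX5. CD79B, a chain of the B cell receptor, was at 163 and 21.9 in K11-5, 1327 and 1353 in K11, and 1052 and 1528 in wild type. SYK, BTK, EBF1, BCL6, IKZF3 and CD74 also lay below wild type in both K11-5 arrays, and IKZF1 overlapped. The others lay above wild type in both K11-5 arrays. IGLL1 was at 3809 and 2353 in K11-5, IRF8 at 554 and 206, and PAX5 at 11.4 and 29.0, while BLK was below background there. Among other cell types, 7 of 11 T cell markers lay below background in all 6 arrays, and the T cell list summed to 320.1 and 517 in K11-5, 1309.7 and 1011 in K11, and 1260.3 and 1314 in wild type. CD3D made up most of that sum and fell in K11-5, at 213 and 397 in K11-5, 1167 and 865 in K11, and 1153 and 1174 in wild type. Summed erythroid markers were 44.0 to 50.6 in K11-5, 73.2 to 79.9 in K11 and 44.6 to 63.5 in wild type. Summed myeloid markers were 573 and 629 in K11-5, 602 and 945 in K11, and 353 and 580.3 in wild type. The fibroblast sums were 1198 and 1648 in K11-5, 1123 and 1100.5 in K11, and 1605 and 994 in wild type. VIM made up most of each fibroblast sum. The part of these differences in the results below was not tested.

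A part of the chaperone and folding enzyme genes was lower in both mutant lines than in wild type. Of the 15 measured, 5 fell in K11-5 and 9 fell in K11, and none rose in either. Over all 31 genes, 7 fell and none rose in K11-5 against wild type, where 3.62% of all tested genes passed as lower and 3.51% as higher. In K11 against wild type 12 fell and 2 rose, where 5.21% of all tested genes passed as lower and 5.08% as higher. Among the 7241 tested genes at least as bright as the dimmest of the 31, the shares that passed as lower were 4.57% in K11-5 and 6.7% in K11. Both comparisons use the same wild type arrays. The 31 genes were listed with earlier results of these data known, so these shares are no independent test of the group. A gene passed where limma's p-value, adjusted by the Benjamini-Hochberg method over all tested probe sets, was under 0.05, and fold changes below are log2 values with their standard errors.

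HSPA5 encodes BiP, the main Hsp70 chaperone of the ER lumen and the repressor of the stress sensors. Its normalized signals were 1216 and 1591 in K11-5, 1054 and 883 in K11, and 3809 and 3017 in wild type. Every mutant array lay below both wild type arrays, and its log2 fold change was -1.28 ± 0.17 for K11-5 over wild type (adjusted p = 0.00349) and -1.81 ± 0.17 for K11 over wild type (adjusted p = 0.000716). HSP90B1, the ER form of Hsp90 known as GRP94, had signals of 1187 and 1323 in K11-5, 923 and 820.1 in K11, and 3303 and 2237 in wild type. It fell by 1.12 ± 0.18 on the log2 scale in K11-5 (adjusted p = 0.00854) and by 1.64 ± 0.18 in K11 (adjusted p = 0.00131), again with no overlap with wild type. HYOU1, a large Hsp70 relative that acts as a nucleotide exchange factor for BiP, had signals of 289.8 and 322 in K11-5, 262 and 388 in K11, and 724 and 648 in wild type. Its log2 fold changes were -1.16 ± 0.21 in K11-5 (adjusted p = 0.0127) and -1.10 ± 0.21 in K11 (adjusted p = 0.0132).

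Protein disulfide isomerases, which form and rearrange disulfide bonds, fell in part. PDIA4 had signals of 412 and 543 in K11-5, 448 and 459 in K11, and 1533 and 1222 in wild type. Its log2 fold changes were -1.53 ± 0.18 in K11-5 (adjusted p = 0.00198) and -1.59 ± 0.18 in K11 (adjusted p = 0.0016), so its level was 2.88-fold and 3.01-fold lower. PDIA6 had signals of 531 and 602 in K11-5, 433 and 469.7 in K11, and 1190.0 and 1178 in wild type. It fell by 1.06 ± 0.15 on the log2 scale in K11-5 (adjusted p = 0.0042) and by 1.39 ± 0.15 in K11 (adjusted p = 0.00112). PDIA3, the isomerase that works with calnexin and calreticulin on glycoproteins, had signals of 318 and 207 in K11-5, 106 and 139.9 in K11, and 406 and 228 in wild type. The K11-5 arrays overlapped wild type, with a log2 fold change of -0.24 ± 0.31 (adjusted p = 0.735), while K11 fell by 1.31 ± 0.31 (adjusted p = 0.0299), and the difference between the lines did not pass (adjusted p = 0.0993). P4HB, the isomerase first described in this family and a subunit of prolyl hydroxylase, had signals of 2332 and 1953 in K11-5, 2007 and 1924 in K11, and 3047 and 2459.7 in wild type. All mutant arrays lay below wild type, but with log2 fold changes of -0.36 ± 0.14 in K11-5 and -0.48 ± 0.14 in K11 neither passed (adjusted p = 0.199 and 0.073).

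The J proteins are co-chaperones that deliver clients to BiP. DNAJB9 (ERdj4) had signals of 119 and 133 in K11-5, 111 and 137 in K11, and 283 and 197 in wild type, with log2 fold changes of -0.89 ± 0.24 in K11-5 (adjusted p = 0.0603) and -0.93 ± 0.24 in K11 (adjusted p = 0.0433). The 2 values are nearly equal and lie on either side of the threshold. DNAJB11 (ERdj3) had signals of 47.5 and 49.6 in K11-5, 26.7 and 34.9 in K11, and 71.5 and 81.9 in wild type, and the 3 groups did not overlap. It fell by 1.27 ± 0.28 on the log2 scale in K11 (adjusted p = 0.0223), while its value of -0.64 ± 0.28 in K11-5 did not pass (adjusted p = 0.245). DNAJC3 (p58IPK), which also dampens PERK, ranged from 98.9 to 133 over the 6 arrays and passed in neither comparison. CRELD2, an ER stress-induced isomerase-like protein, had signals of 184 and 222 in K11-5, 126 and 207 in K11, and 378 and 353 in wild type. Its log2 fold change was -1.17 ± 0.25 in K11 (adjusted p = 0.0202) and -0.85 ± 0.25 in K11-5, which did not pass (adjusted p = 0.0788). SDF2L1, a partner of the J proteins, had signals of 27.0 and 42.8 in K11-5, 15.5 and 42.9 in K11, and 106 and 64.7 in wild type. Its wide spread between arrays left log2 values of -1.24 ± 0.46 in K11-5 and -1.60 ± 0.46 in K11 short of the threshold (adjusted p = 0.168 and 0.0644).

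CALR, CANX and UGGT1 belong to the calnexin cycle, which holds glycoproteins until they fold, and none of these 3 genes passed in either comparison with wild type. CALR, the soluble lectin chaperone calreticulin, had signals of 142 and 95.1 in K11-5, 123 and 100.4 in K11, and 265 and 177 in wild type, with log2 values of -0.89 ± 0.28 (adjusted p = 0.1) and -0.95 ± 0.28 (adjusted p = 0.0673). CANX, its membrane-bound relative calnexin, had signals of 647 and 792 in K11-5, 651 and 621 in K11, and 627 and 553 in wild type. A second CANX probe set lay the other way, with signals of 499 and 595 in K11-5, 468 and 515 in K11, and 757 and 686 in wild type, so the direction of this gene differs between its probe sets. UGGT1, the glucosyltransferase that marks unfolded glycoproteins for another round, had signals of 257 and 335 in K11-5, 271 and 262 in K11, and 216 and 191 in wild type. Its log2 values were positive, at 0.53 ± 0.20 in K11-5 and 0.39 ± 0.20 in K11 (adjusted p = 0.174 and 0.294).

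**Figure D1:**
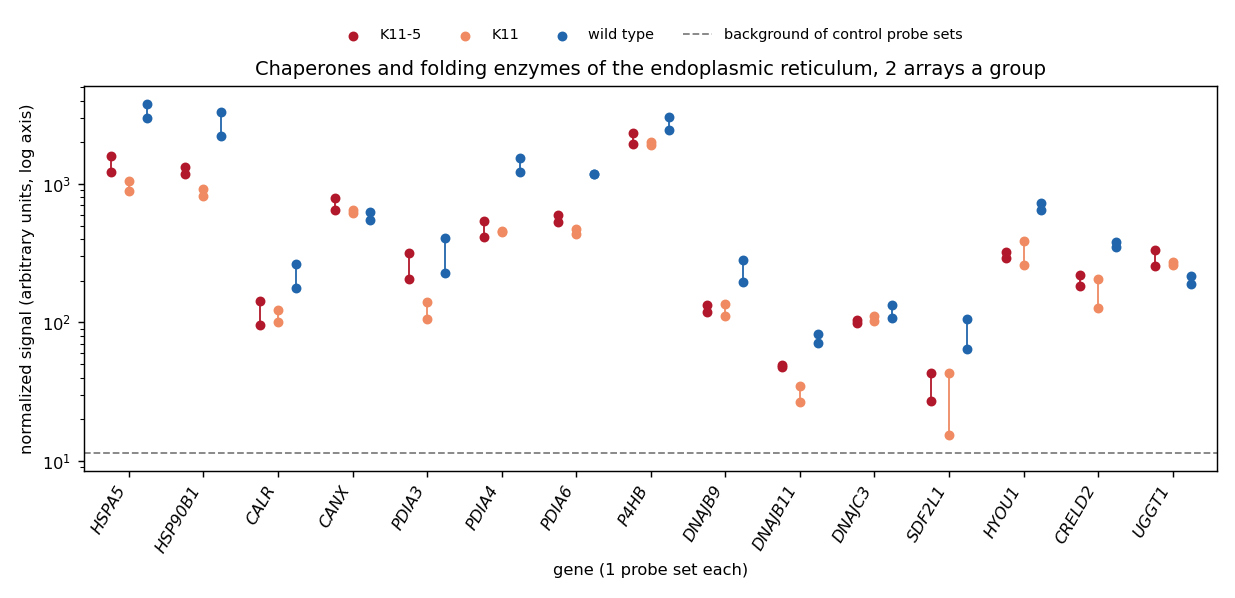
Normalized signal on a log axis for the 15 chaperone and folding enzyme genes, with 1 point per array, a line joining the 2 arrays of a group, and the background of control probe sets dashed. For HSPA5, HSP90B1, PDIA4, PDIA6 and HYOU1 all K11-5 and K11 arrays lie below both wild type arrays, while CANX and UGGT1 do not.

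Across the 15 chaperone genes the median log2 fold change was -0.89 in K11-5 and -1.17 in K11, beside medians of 0.02 and 0.00 over all tested genes. In 12 of 15 genes both K11-5 arrays lay below both wild type arrays, and in 12 of 15 both K11 arrays did, beside 27.6% and 28% of all tested genes. Set against the wild type mean, the median over these genes per array was -0.97 and -0.81 for K11-5, -1.45 and -0.92 for K11, and 0.15 and -0.15 for wild type. Each mutant array lay further from that mean than the wild type arrays did. The mean was taken from these 2 wild type arrays, however, which by construction places them nearer to it. With probe sets averaged, CRELD2 and PDIA3 lost their K11 calls, at -0.60 and -0.735, and CRELD2 stood at -0.04 in K11-5. Each of the 2 genes has a probe set with a mean below the background of control probe sets, at 9.61 and 11.3. Counts of calls also depended on single arrays, and in the fits named next fewer of all tested probe sets passed as well. Without wild type array 1 the chaperone genes that fell numbered 2 in K11-5 and 4 in K11, and without wild type array 2 they numbered 3 and 5. Without either K11-5 array 3 fell in K11-5, and without K11 array 1 only 5 fell in K11. HSPA5 and PDIA4 passed in both comparisons in each of the 6 fits that left out 1 array. HSP90B1 lost its K11-5 call without wild type array 1 or either K11-5 array, PDIA6 lost its K11-5 call without either wild type array, and HYOU1 lost its K11-5 call without any 1 of the wild type and K11-5 arrays and its K11 call without either wild type array. In K11, DNAJB11 and CRELD2 lost the call without either wild type array or K11 array 1, PDIA3 without wild type array 1 or K11 array 1, and DNAJB9 in 10 of 15 alternatives. None of the 31 genes passed when the intensity trend was left out of the variance model. In that setting 16 of all 23063 tested probe sets passed as higher and 11 as lower in K11-5, and 9 and 12 in K11. An unadjusted p under 0.05 was still found for 12 of the 31 genes in K11-5 and 17 in K11. These were 38.7% and 54.8%, beside 17.3% and 19.6% of all tested genes.

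Sensors and their transcription factor gave no common direction. XBP1, the transcription factor that IRE1 activates by splicing its mRNA, had signals of 2266 and 1904 in K11-5, 2477 and 2004 in K11, and 1920.0 and 1862 in wild type. Its log2 fold changes of 0.14 ± 0.14 in K11-5 and 0.24 ± 0.14 in K11 did not pass (adjusted p = 0.677 and 0.384), with 95% intervals of -0.18 to 0.45 and -0.08 to 0.56. A second XBP1 probe set had 1594 and 1390.1 in K11-5, 2083 and 1655 in K11, and 1894 and 1625 in wild type, so in K11-5 its sign was opposite, at -0.24 (adjusted p = 0.46). These probe sets give the summed level of XBP1 mRNA and not its spliced share. ERN1, the IRE1 kinase and nuclease, had signals of 380.4 and 299.8 in K11-5, 252 and 215 in K11, and 253 and 243 in wild type. The K11-5 arrays lay above the others, with a log2 value of 0.44 ± 0.19 against wild type that did not pass (adjusted p = 0.253). EIF2AK3, which encodes PERK, was dim, with signals of 16.1 and 10.4 in K11-5, 6.61 and 9.24 in K11, and 37.8 and 49.1 in wild type. Background, taken from control probe sets, was a signal of 11.4, so both K11 arrays and 1 K11-5 array lay below it. EIF2AK3 was at least 3.37-fold lower in K11 than in wild type (adjusted p = 0.0144), and its log2 value of -1.59 ± 0.42 in K11-5 did not pass (adjusted p = 0.059). The call in K11 was lost without either wild type array.

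Of the 6 degradation genes, 1 fell in each line, where 3.62% of all tested genes passed as lower in K11-5 and 5.21% in K11. DERL1, a membrane protein of the channel that returns misfolded chains to the cytosol, had signals of 469.7 and 730.3 in K11-5, 816 and 648 in K11, and 1397 and 1272 in wild type. Its log2 fold changes were -1.18 ± 0.21 in K11-5 (adjusted p = 0.0128) and -0.87 ± 0.21 in K11 (adjusted p = 0.0342), and both calls were lost without either wild type array, the K11-5 call also without K11-5 array 1 and the K11 call without K11 array 2. DERL2, its close relative, had signals of 437 and 441 in K11-5, 482 and 328 in K11, and 368 and 324 in wild type, and passed in neither comparison. EDEM1, a mannosidase-like protein that directs glycoproteins to degradation, had signals of 289 and 280.0 in K11-5, 370.2 and 290.2 in K11, and 446 and 389 in wild type. All 4 mutant arrays lay below wild type, with log2 values of -0.55 ± 0.19 in K11-5 and -0.34 ± 0.19 in K11 that did not pass (adjusted p = 0.131 and 0.324).

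SEL1L, the adaptor of the HRD1 ubiquitin ligase, had signals of 192 and 194 in K11-5, 626 and 374 in K11, and 308 and 167 in wild type. HERPUD1, which helps to assemble that ligase complex, had signals of 202 and 183 in K11-5, 438 and 284 in K11, and 279 and 167 in wild type. On this scale the K11 arrays of both genes lay above the other 4 arrays, while K11-5 overlapped wild type. On the deposited scale K11 overlapped wild type in both genes, with SEL1L at 533 and 277 in K11 and 381 and 177 in wild type. A dimmer SEL1L probe set had 26.7 and 28.2 in K11-5, 51.4 and 37.1 in K11, and 63.3 and 47.3 in wild type, so the direction in K11 differs between probe sets. Against wild type the K11 log2 values were 1.09 ± 0.31 for SEL1L and 0.70 ± 0.28 for HERPUD1, neither past the threshold (adjusted p = 0.0618 and 0.171). VCP, the ATPase that pulls chains out of the membrane, had signals of 958 and 698 in K11-5, 403 and 708 in K11, and 785 and 756 in wild type, and passed in neither comparison.

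Translocation genes split. SSR1, a subunit of the TRAP complex beside the Sec61 channel, had signals of 1040.0 and 1023 in K11-5, 929 and 911 in K11, and 2339 and 2115 in wild type. It fell by 1.11 ± 0.13 on the log2 scale in K11-5 (adjusted p = 0.0017) and by 1.27 ± 0.13 in K11 (adjusted p = 0.000827), with a narrow spread between arrays of each mutant line. A second SSR1 probe set gave -1.14 ± 0.17 and -0.91 ± 0.17, both past the threshold, but another gave 0.30 and -0.09, and the gene did not pass in either line when all of its probe sets were averaged. SSR3, another TRAP subunit, lay the other way, with signals of 1351 and 1203 in K11-5, 1518 and 1263 in K11, and 916 and 836 in wild type. SEC62, which with SEC63 drives import after translation, had signals of 537 and 529 in K11-5, 648 and 607 in K11, and 371 and 379.9 in wild type. On the normalized scale both rose in K11, by 0.66 ± 0.15 for SSR3 (adjusted p = 0.0244) and 0.74 ± 0.15 for SEC62 (adjusted p = 0.0178), but neither passed on the deposited scale, with arrays centred on their medians or without either wild type array, nor did SSR3 without K11 array 1. In K11-5 their values were 0.54 ± 0.15 and 0.50 ± 0.15, which did not pass (adjusted p = 0.0632 and 0.0887). With its probe sets averaged, SEC62 also lost its K11 call. Its K11-5 value kept its sign in 14 of 15 alternatives and was -0.23 at the lowest.

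Among the genes of the Sec61 channel, SEC61B, the beta subunit, had signals of 7619 and 7330.2 in K11-5, 7127 and 7739 in K11, and 7985 and 7707 in wild type, with 95% intervals of -0.28 to 0.14 in K11-5 and -0.28 to 0.13 in K11 on the log2 scale. Another SEC61B probe set, at 4103 and 3404 in K11-5, 3083 and 3825 in K11, and 5594 and 5128 in wild type, did fall in K11, by 0.64 ± 0.14 (adjusted p = 0.0216). SEC61A1, the pore-forming subunit, had signals of 802 and 873 in K11-5, 621 and 848 in K11, and 1016 and 885 in wild type. SEC63, the J protein partner of the channel, ranged over 103 and 108 in K11-5, 88.7 and 85.3 in K11, and 111 and 119 in wild type, and SPCS3, a signal peptidase subunit, lay between 2068 and 2601 in all 6 arrays. None of SEC61A1, SEC63 and SPCS3 passed in either comparison.

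**Figure D2:**
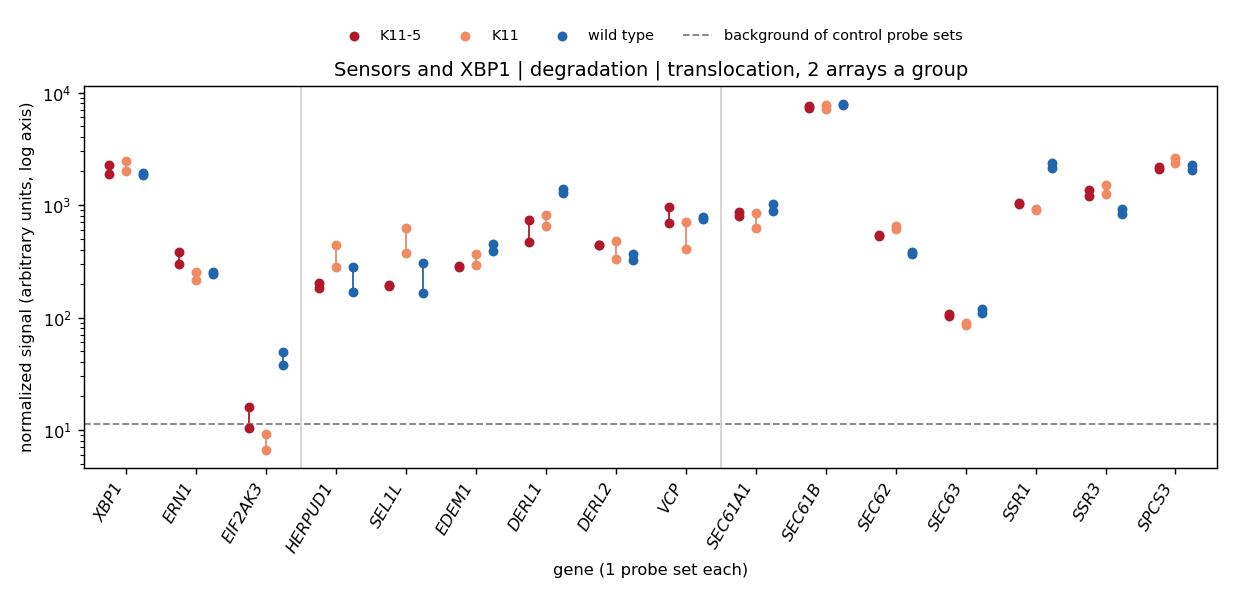
Normalized signal on a log axis for the 16 sensor, degradation and translocation genes, separated by vertical lines, with 1 point per array, a line joining the 2 arrays of a group, and the background of control probe sets dashed. DERL1, EIF2AK3 and SSR1 lie lower in K11-5 and K11 than in wild type, SEC62 and SSR3 higher, and the K11 points of SEL1L and HERPUD1 lie above the others on this scale.

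Outside the chaperones, then, 2 of 16 genes fell in K11-5 and 3 fell and 2 rose in K11. Of all tested genes, 3.62% passed as lower in K11-5, and 5.21% as lower and 5.08% as higher in K11. Over all 31 genes the median log2 fold change was -0.24 in K11-5 and -0.48 in K11. The groups did not overlap and the mutant was lower for 19 genes in K11-5 and 19 in K11, beside 27.6% and 28% of all tested genes. The mutant was higher without overlap for 6 and 7, beside 29.4% and 27.5% of all tested genes. The scale of the arrays changed these splits. On the deposited scale the median over all tested probe sets itself moved to -0.12 in K11-5 and -0.31 in K11, and 9 of the 31 genes fell and none rose in K11-5, while 18 fell and none rose in K11. Of all 23063 tested probe sets, 809 then passed as lower in K11-5 and 2615 in K11. The share of all calls that were lower became 72.6% and 89.2%, beside 52.4% and 51.3% on the normalized scale. With arrays centred on their medians, 10 genes fell in K11-5 and 19 in K11, with none higher. In that setting 1150 of the 23063 probe sets passed as lower in K11-5 and 2973 in K11. Without wild type array 1 the median over the 31 genes was -0.18 in K11-5 and -0.45 in K11. Without wild type array 2 it was -0.54 and -0.55. It was -0.51 in K11 without K11 array 1, and -0.49 in K11-5 without K11-5 array 1. Fewer of the 31 genes passed in these fits, and fewer of all tested probe sets did too. Without either K11 array more passed in K11-5, among the 31 genes and among all tested probe sets. Second and further probe sets of these genes that lay above background numbered 26 in 18 genes, and 23 of them had the sign of the brightest probe set in K11-5 against wild type and 22 in K11 against wild type. Among these, PDIA4 gave -1.24 and -1.32, HYOU1 -1.44 and -1.21, and PDIA3 -0.55 and -1.43 in K11-5 and K11, and P4HB fell in K11 by 1.06 ± 0.23 (adjusted p = 0.0237). The second HSP90B1 probe set, with a mean of 24.1, gave -1.59 in K11 but only -0.55 in K11-5, which did not pass (adjusted p = 0.459).

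No gene of the 31 differed between K11-5 and K11 at the threshold. In this comparison 3.9% of all tested genes passed. An unadjusted p under 0.05 was found for 8 of the 31, or 25.8%, close to the 21.4% of all tested genes. SEL1L was closest, at -1.32 ± 0.31 on the log2 scale in K11-5 against K11 (adjusted p = 0.0529). HERPUD1 was -0.87 ± 0.28 (adjusted p = 0.136), in the same direction. The median over the 15 chaperones was 0.17, and in 5 of them both K11-5 arrays lay above both K11 arrays, beside 25.7% of all tested genes. PDIA3 was 1.06 ± 0.31 (adjusted p = 0.0993), and HSPA5 and HSP90B1 were both 0.53, with intervals of 0.14 to 0.91 and 0.12 to 0.93 (adjusted p = 0.146 and 0.163). PDIA4 was 0.06, with an interval of -0.34 to 0.47, and HYOU1 was -0.06, with an interval of -0.52 to 0.40. The comparison depended on scale. On the deposited scale HSPA5, HSP90B1, PDIA3 and VCP passed as higher in K11-5, and the median of all tested probe sets was 0.22. Of all 23063 tested probe sets, 783 passed as higher on that scale, beside 254 on the normalized scale. With the probe sets of a gene averaged, VCP lay at -0.46, the opposite sign, and all 6 degradation genes lay below 0. Without K11 array 2, 2 genes passed, SEL1L at -1.69 and VCP at 1.02. A moderated F-test over the 3 groups called 15 of the 31 genes, where 13.3% of all tested genes passed. These 15 were 9 chaperones, 1 sensor, 2 degradation and 3 translocation genes, and their number was 6 without wild type array 1, 5 without wild type array 2 and 8 without either K11-5 array.

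**Figure D3:**
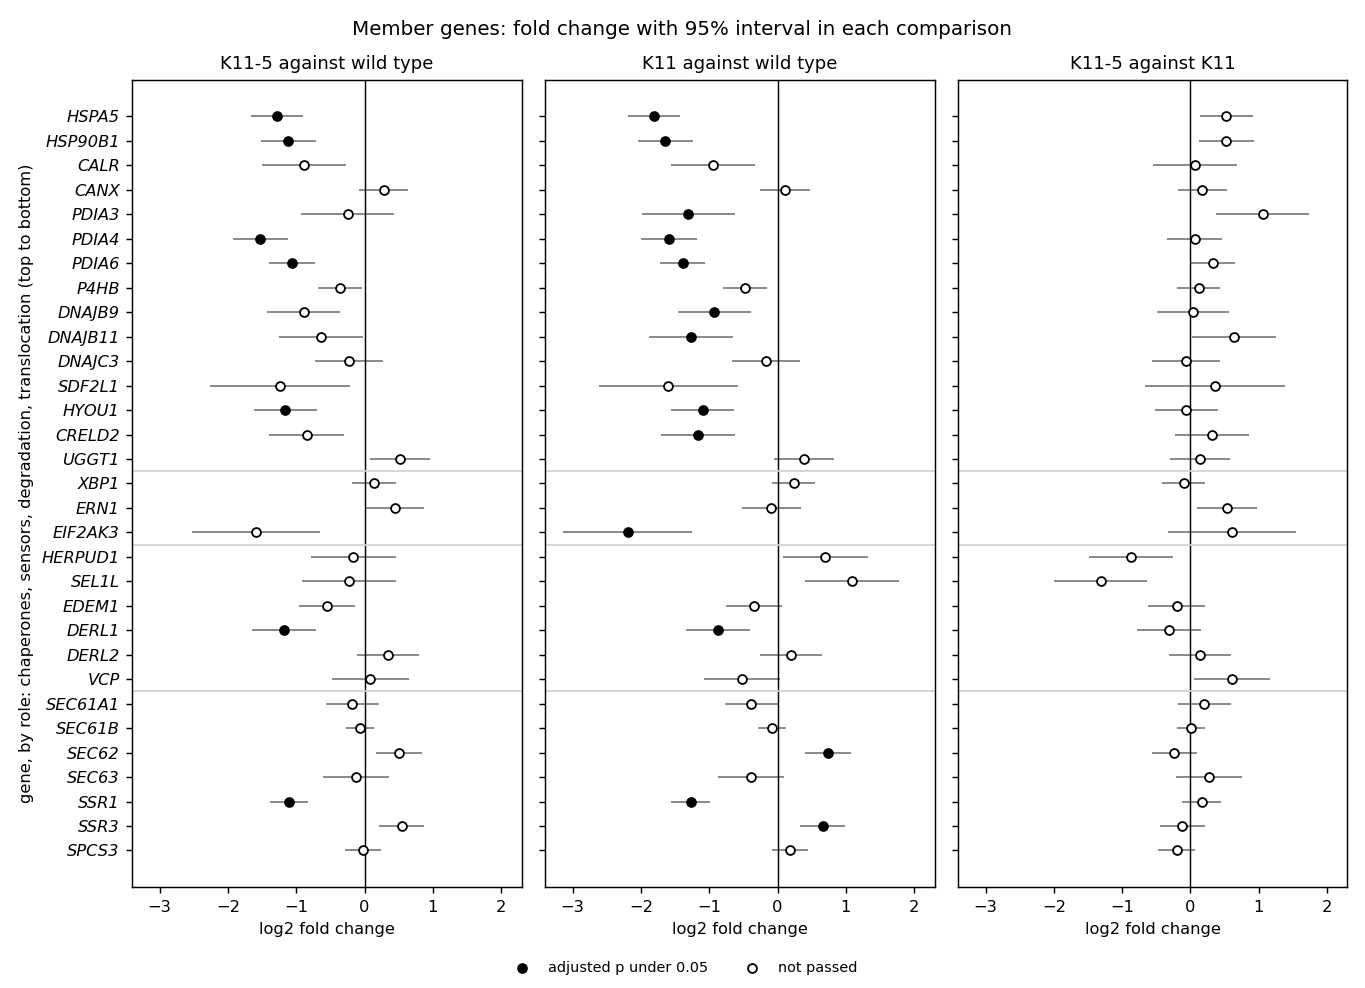
Log2 fold change with its 95% interval for each of the 31 genes in 3 panels, for K11-5 and for K11 over wild type and for K11-5 over K11, with filled points for adjusted p under 0.05. Filled points number 7, 14 and 0 in the 3 panels, and those of the chaperone block all lie below 0.

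Some genes of the group had values near the median of their chromosome, and most chaperones lay below it. Median fold changes of whole chromosomes, from RefSeq genes of assembly GRCg7b, differed from 0 on several. On chromosome 2, which holds PDIA4, SSR1, DERL1 and SEC61B, the median over 876 tested genes was -0.36 in both K11-5 and K11. On chromosome 9, which holds SEC62, SSR3, UGGT1 and DNAJB11, the median over 293 genes was 0.44 in K11-5 and 0.46 in K11. Relative to that median the 2 genes that rose in K11 stood at 0.28 for SEC62 and 0.20 for SSR3, and UGGT1 at -0.07. DNAJB11, on the same chromosome, stood at -1.07 in K11-5 and -1.73 in K11 relative to it. PDIA4 remained at -1.16 and -1.23 relative to chromosome 2, SSR1 at -0.74 and -0.91, and DERL1 at -0.82 and -0.51. HSPA5 lies on chromosome 17, whose medians were 0.05 and -0.06. Of the 15 chaperones, 12 in K11-5 and 14 in K11 lay below the median of their chromosome. Over all 15 the median relative to the chromosome was -0.94 in K11-5 and -0.99 in K11. For all 31 genes the median relative to the chromosome was -0.41 in both comparisons.

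**Figure D4:**
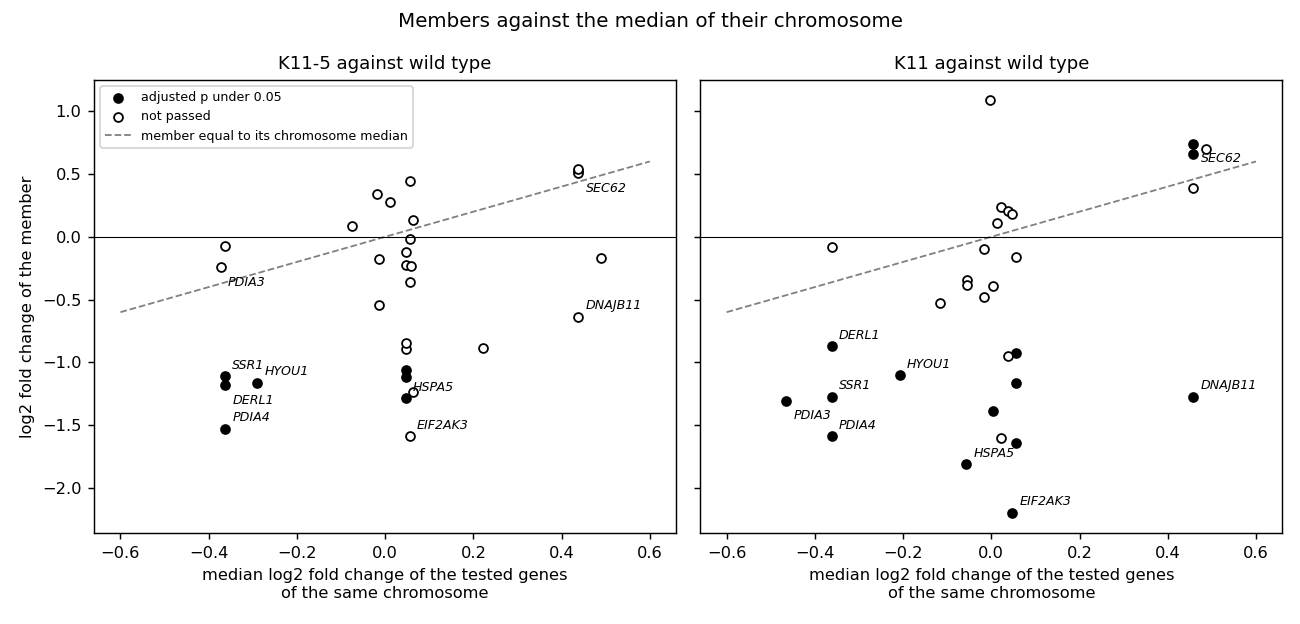
Log2 fold change of each gene (vertical axis) against the median log2 fold change of the tested genes of its chromosome (horizontal axis), in K11-5 and K11 against wild type, with a dashed line where both are equal. SEC62 lies close to the line, whereas PDIA4, SSR1, HYOU1 and HSPA5 lie well below it.

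Other genes of the secretory pathway were counted by list. Of all tested genes, 3.62% passed as lower and 3.51% as higher in K11-5, and 5.21% and 5.08% in K11. Of 23 tested further folding and redox genes, 7 fell and none rose in K11-5 (median -0.52), and 10 fell and 1 rose in K11, with a median of -0.63. These counts became 7 lower in K11-5, and 16 lower and 1 higher in K11, on the deposited scale, where the K11 median was -1.13. On that scale 809 of all 23063 tested probe sets passed as lower in K11-5 and 2615 in K11. TXNDC5, a thioredoxin-domain isomerase, had signals of 564 and 504 in K11-5, 538 and 413 in K11, and 1444 and 1079 in wild type, and fell by 1.23 ± 0.19 in K11-5 (adjusted p = 0.00739) and by 1.40 ± 0.19 in K11 (adjusted p = 0.00346). With its probe sets averaged TXNDC5 passed in neither line, at -0.40 and -0.65, and its calls were also lost without wild type array 1, that of K11-5 also without K11-5 array 2. ERO1A, the oxidase that recharges disulfide isomerases, had signals of 90.4 and 55.4 in K11-5, 164 and 117 in K11, and 501 and 295 in wild type. It fell by 2.41 ± 0.32 in K11-5 (adjusted p = 0.00312) and by 1.46 ± 0.32 in K11 (adjusted p = 0.0229), but passed in neither when its probe sets were averaged, at -0.66 and -0.10. FKBP9, an ER prolyl isomerase, lay below background in both lines and was at least 7.10-fold lower than in wild type in each. ERP44, PPIB and ERP29 fell in both lines. ERP44 had signals of 261 and 243 in K11-5, 285 and 316 in K11, and 605 and 598 in wild type. Log2 values in K11-5 and K11 were -0.86 and -0.97 for PPIB and -1.18 and -1.17 for ERP29. The gene of this list that rose in K11 was FKBP7, at 1.48. Without wild type array 1 only 4 genes of the list fell in K11-5 and 1 in K11, and without wild type array 2 only 2 fell in each, and 4 fell in K11-5 without its array 2.

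Genes of the PERK branch and targets of ATF4 had positive medians in both lines. Of 10 tested, 1 rose and none fell in K11-5, with a median of 0.21, and 3 rose in K11 without any fall, where the median was 0.79. Of all tested genes, 3.51% passed as higher and 3.62% as lower in K11-5, and 5.08% and 5.21% in K11. CEBPB, a transcription factor that partners with ATF4 family members, had signals of 452 and 555 in K11-5, 955 and 494 in K11, and 179 and 83.8 in wild type. It rose by 2.01 ± 0.37 in K11-5 (adjusted p = 0.0137) and by 2.47 ± 0.37 in K11 (adjusted p = 0.00492), and the call in K11-5 was lost without wild type array 2 or without either K11-5 array. PPP1R15B, a phosphatase subunit that reverses the PERK signal, and CEBPG rose in K11 by 1.37 and 0.81 on the normalized scale, but neither passed on the deposited scale or with centred arrays, where 1 gene of the list rose and 1 fell. The medians of the list were then 0.08 in K11-5 and 0.22 in K11 on the deposited scale, and 0.08 and 0.29 with centred arrays. CEBPG also lost its K11 call with its probe sets averaged. Over the 15 alternatives, which include fits without 1 array, CEBPG ran from -0.07 to 1.06 in K11 and PPP1R15B from 0.84 to 1.83. ATF4 itself was at 1302 and 1210.1 in K11-5, 1464 and 1604 in K11, and 1261 and 1234 in wild type, with log2 values of 0.01 and 0.30 that did not pass. Of 11 other genes of sensing and signal processing, none passed in K11-5 and 1 fell in K11, BAK1 at -1.39, an apoptosis effector that also binds IRE1, and its call was lost without either wild type array or K11 array 1.

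Further along the pathway the genes that passed were mostly lower. Of 24 other degradation genes, 4 fell and 1 rose in K11-5, and 4 fell in K11. DERL3, the derlin known for its induction by the unfolded protein response, had signals of 87.2 and 115 in K11-5, 209 and 261 in K11, and 479.6 and 405 in wild type, and fell by 2.12 ± 0.22 in K11-5 (adjusted p = 0.000894) and by 0.91 ± 0.22 in K11 (adjusted p = 0.033). ERLEC1, a lectin of the degradation pathway, fell by 0.95 in K11-5 and by 1.04 in K11. Of 19 other translocation genes, 2 fell in K11-5, SPCS2 and SEC11C of the signal peptidase, and 5 fell in K11, among them SRP54 of the signal recognition particle by 1.09 and SEC61G of the channel by 1.42. Of 25 N-glycan transfer genes, 3 fell in K11-5, STT3B, ALG2 and RPN1, and 4 fell and 1 rose in K11, led by ALG2 at -1.34. With probe sets averaged, SPCS2 and STT3B passed in neither line, and DERL3 lost its K11 call. SEC11C lost its K11-5 call on the deposited scale and with no filter on dim probe sets. Of 30 ER to Golgi transport genes, 5 fell in K11-5 and 4 fell and 1 rose in K11, with TMED3, a cargo receptor, the lowest in K11 at -1.87. Medians of these 4 lists lay between -0.12 and -0.01 in K11-5 and between -0.29 and -0.15 in K11. On the deposited scale they lay between -0.29 and -0.16 in K11-5 and between -0.82 and -0.65 in K11. In K11 8, 12, 14 and 14 genes of the 4 lists then fell and none rose. Of all 23063 tested probe sets, 2615 passed as lower in K11 on that scale and 316 as higher, and their median was -0.31. Without wild type array 1 no gene of the other translocation list passed in either line, and none of the other degradation list passed in K11. Against wild type, 7.12% of all tested genes passed in either direction in K11-5 and 10.3% in K11. Every call of the further lists against wild type was lost when the intensity trend was left out of the variance model. In that setting 16 of all 23063 tested probe sets passed as higher and 11 as lower in K11-5, and 9 and 12 in K11. Over the further lists together, 25 of 149 tested genes passed in K11-5 against wild type and 34 in K11 against wild type. Of these, 17 and 32 lost the call without wild type array 1, and 22 and 29 without wild type array 2. DERL3 and ERO1A in K11-5 and CEBPB in K11 passed in both of those fits.

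**Figure D5:**
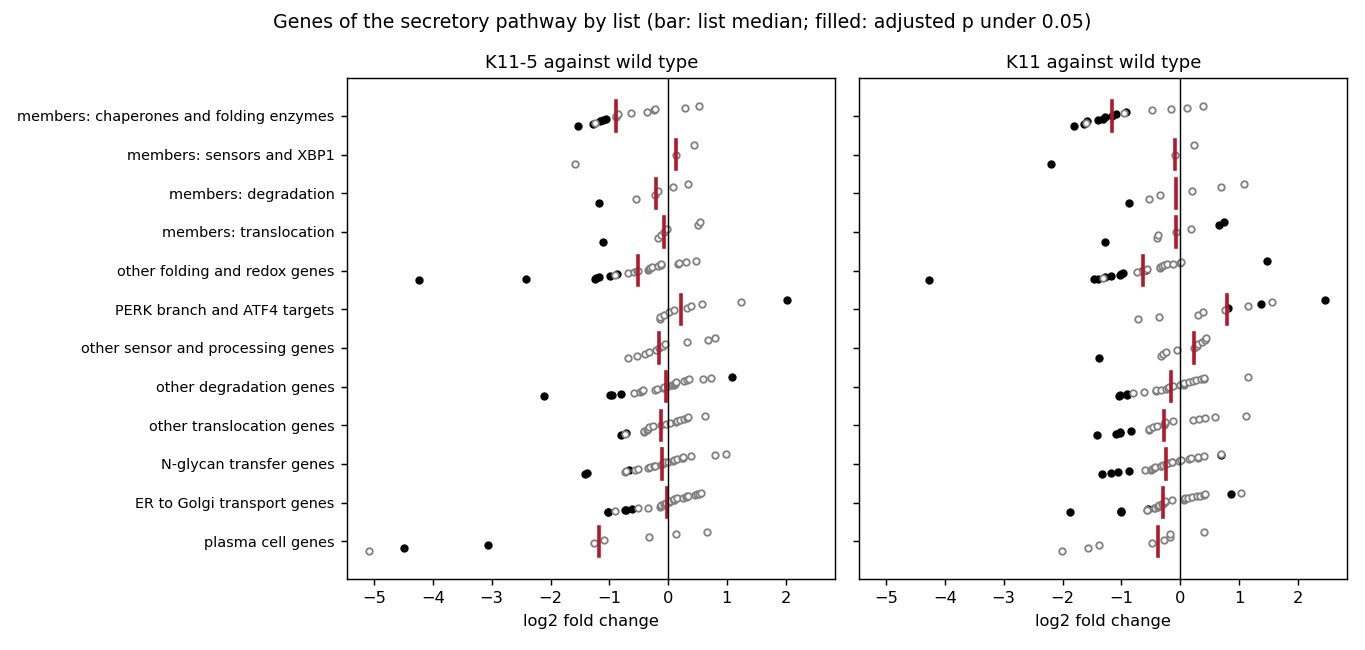
Log2 fold change of every tested gene in 12 lists, in K11-5 and K11 against wild type. The lists hold secretory pathway, stress response and plasma cell genes. A bar marks each list median, and filled points mark adjusted p under 0.05. The medians of the 2 folding lists lie below 0 in both panels, and that of the PERK branch and ATF4 targets lies above 0.

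Plasma cell genes were few and uneven. Of 8 tested, none passed in K11, where on the deposited scale 2 fell. In K11-5, 2 fell, IRF4 at -4.50 ± 0.94 and TENT5C at -3.07 ± 0.68, where 3.62% of all tested genes passed as lower. Both calls were lost without either wild type array, that of TENT5C also without K11-5 array 2. IRF4, a transcription factor of plasma cell differentiation, had signals of 264 and 13.4 in K11-5, 354 and 365 in K11, and 1436 and 1456 in wild type. The J chain gene JCHAIN had signals of 1808 and 170.3 in K11-5, 2004 and 1251 in K11, and 1278 and 1107 in wild type, so the second K11-5 array was the low one in both genes. Of the chaperone and folding enzyme genes, P4HB, PDIA3, CALR and DNAJC3 had lower normalized signals in K11-5 array 2 than in K11-5 array 1. The others, among them HSPA5, HSP90B1, PDIA4, PDIA6 and HYOU1, had higher signals in array 2.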

How the data were processed

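Total RNA of 6 DT40 cultures or aliquots was hybridized to single-colour Affymetrix chicken arrays, 2 each for K11-5, K11 and wild type. The authors deposited 1 linear intensity per probe set and array, made with GCOS per the submitters' processing notes; how GCOS scaled the arrays, and with which version, is not stated there. The number of arrays limits the precision.

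Of 38535 probe sets, 96 AFFX controls were left out. Deposited trimmed means (2% at each end) differed by a ratio of 1.62, so intensities were quantile-normalized and transformed as log2(value + 2), which understates changes of dim probe sets. Probe sets at or above the 40th percentile of the mean, a signal of 5.83, were tested, 23063 in all. One model with 3 group means was fitted with limma 3.58.1 in R 4.3.3 (lmFit, eBayes with an intensity trend, Benjamini-Hochberg adjustment over all tested probe sets of a comparison, threshold 0.05). The fit was tested on simulated data. Intervals are 95% intervals of the fit. Background, a signal of 11.4, was the 95th percentile of 23 control probe sets; a change against a group below it is a lower bound.

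The platform annotation gave 1 symbol for 27168 of the 38439 probe sets, several for 177 and none for 11094; 26853 matched RefSeq genes of assembly GRCg7b, used for names and chromosomes only. Counts per gene use the probe set of highest mean. Named genes were all members, then from each other list up to 4 tested genes of smallest p in a comparison among those past the threshold. ATF4, FKBP7, JCHAIN and the named cell type markers, among them CD79B and CD3D, were chosen after their values were seen. The members and lists were chosen with earlier results of these data known. Same-numbered arrays were not paired: their deviations correlated at 0.06 between K11 and wild type, -0.04 between K11-5 and wild type and -0.03 between K11-5 and K11.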

Additional observations from a re-analysis of the deposited data

Results flagged for a closer look

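The further lists of secretory pathway, stress response and plasma cell genes held 149 tested genes outside the 31 members. In 3 of them, or 2.01%, the change against wild type differed between the lines. This was tested by limma's K11-5 against K11 comparison with Benjamini-Hochberg adjustment. Over all tested genes the share was 3.9%. Without the intensity trend none of the 23063 tested probe sets passed in this comparison, so each of these calls was lost there. DERL3 was lower in K11-5 than in K11, at a log2 value of -1.21 ± 0.22 (adjusted p = 0.0221), with signals of 87.2 and 115 in K11-5 and 209 and 261 in K11, and the call was lost on the deposited scale and when any 1 of the K11-5 or wild type arrays was left out. ERLIN2, which binds ER membrane proteins marked for degradation, was higher in K11-5 by 1.21 ± 0.19 (adjusted p = 0.0125), with signals of 1011 and 1277 in K11-5 and 549.8 and 438 in K11, and it lost the call without K11-5 array 2 and with its probe sets averaged, where the value was 0.37. SAR1B, the GTPase that starts transport vesicles at the ER, was lower in K11-5, at -0.85 ± 0.17 (adjusted p = 0.0309), with signals of 966 and 837 in K11-5 and 1894 and 1391 in K11, and it passed in 4 of 15 alternatives.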

How the results depend on the processing

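Main counts of members past the threshold were 7 in K11-5 against wild type, 14 in K11 against wild type, 0 in K11-5 against K11 and 15 in the F-test, and no called member changed sign under any alternative run. Without the intensity trend none passed in either comparison with wild type or in the F-test (12 and 17 at an unadjusted p under 0.05). Of all 23063 tested probe sets, 16 then passed as higher and 11 as lower in K11-5 against wild type, and 9 and 12 in K11 against wild type. With only the 2 groups compared, 13 passed in K11-5 against wild type and 1 in K11-5 against K11. In K11-5 against K11, 4 passed on the deposited scale, 3 with arrays centred on their medians and 1 with a pseudocount of 16. Of all 23063 tested probe sets, 783, 923 and 315 passed as higher in these 3 settings, and 248, 323 and 472 as lower. The F-test called 9 with no filter on dim probe sets and 9 with all probe sets of a gene averaged. Leaving out 1 array at a time gave 3 to 12, 5 to 17, 0 to 2 and 5 to 16 members. The members' medians of -0.24, -0.48 and 0.14 became -0.41, -0.96 and 0.50 on the deposited scale and -0.41, -0.90 and 0.44 with centred arrays, and that of K11-5 against wild type became -0.47 with probe sets averaged and -0.41 relative to the chromosome. Over arrays left out they ran from -0.54 to -0.18, from -0.61 to -0.45 and from 0.05 to 0.15. With the array number as a replicate block the counts were 7, 16, 1 and 15, with SEL1L the member of K11-5 against K11; in K11 against wild type CALR, P4HB and SEL1L passed and DNAJB9 did not. The labels do not pair these numbers. The causes were not tested, beyond the fewer samples in some of these fits. Signal over background limits EIF2AK3.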
